A study of Mus musculus with 2 samples.

Results

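The 9 transcripts followed here encode the proneural factors Neurod1 and Neurog3, the neuroendocrine factor Insm1, the E proteins Tcf3, Tcf4 and Tcf12, and the inhibitors Id1, Id2 and Id3. They were chosen by name and found by symbol among the 27998 genes in the unique molecular identifier (UMI) counts of both libraries, and all 9 matched 1 row. The data are single-cell RNA-seq of 2 mouse small cell lung cancer (SCLC) tumors, TKO1 and TKO2, each dissected from the lung of a different mouse. Both mice, aged 8-9 months, were labelled Rb-/-; Trp53-/-; Rbl2-/- with a Rosa26 membrane-Tomato/membrane-GFP reporter, on a background mixed from 129/SvOla, 129/SVJ and C57BL/6. These genes were floxed and deleted in lung cells by Cre, so the label need not hold for cells without Cre activity. Tumors had been induced with Adeno-CMV-Cre, a virus whose promoter is not restricted to a lung cell type, and were harvested 7 months later, and live (DAPI-negative) sorted cells were captured on a 10x Chromium instrument. Each tumor has 1 library and there is no normal lung, so a difference between TKO1 and TKO2 is a difference between 2 libraries, no comparison has a p-value, and every interval given is an exact 95% interval for counting error only. What differs between the tumors and what differs between the mice or the libraries cannot be told apart.

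Basic helix-loop-helix (bHLH) factors bind DNA as dimers at E-boxes, short sites spelled CANNTG. Tissue-restricted members such as Neurog3 and Neurod1, which drive neuronal and endocrine differentiation, dimerize with the widely expressed E proteins. Id proteins have the helix-loop-helix but lack the basic region, so a dimer of an Id protein and an E protein does not bind DNA, and Id genes are known targets of BMP signaling. Insm1 is no bHLH factor but a zinc finger repressor of neuroendocrine cells that is transcribed downstream of proneural factors, and NEUROD1 marks a subset of SCLC.

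Barcodes with more than 500 detected genes were retained, 3193 of 4514 in TKO1 and 3568 of 3816 in TKO2, with medians of 1223 and 1960 UMIs. Clusters named from marker genes gave 2620 neuroendocrine-like cells (3765592 UMIs) in TKO1 and 3381 (7760480 UMIs) in TKO2, and levels below are CPM, the UMIs of a gene per 1000000 UMIs, summed over these cells unless another class is named. The deleted genes still gave UMIs, at 77.3 and 15.2 CPM for Rb1, 51.8 and 63.0 CPM for Trp53 and 9.83 and 1.80 CPM for Rbl2, but reads from transcript ends need not cover the deleted exons and do not check the labels. All 16 neuroendocrine markers had UMIs in both, but they summed to 22408 CPM in TKO1 and 1685 CPM in TKO2, where 12 of the 16 were above 20 CPM. Immune-like cells also had UMIs of all 16, with 15 above 20 CPM in TKO1 and 12 in TKO2. These counts of markers therefore do not tell the classes apart. Immune-like cells numbered 98 and 121, and 105 cells of TKO1 were club-like. Left unnamed were 370 cells of TKO1, in which ciliated markers stood beside neuroendocrine ones, and 66 of TKO2 with club and neuroendocrine markers. The libraries share 22 barcodes, and no member's ratio moved out of its interval without them. TKO2 stood at a median log2 ratio of -0.37 to TKO1 over 12848 genes that had 10 UMIs or more, and tumor ratios are given relative to it. The share of UMIs from ribosomal protein genes was 10.6% in TKO1 and 23.1% in TKO2. In CPM without mitochondrial and ribosomal protein genes, not centred, the log2 ratio of TKO2 to TKO1 was -2.69 for Id1, -2.07 for Id2, -3.05 for Id3, 0.89 for Tcf3, 1.02 for Tcf4 and 0.70 for Tcf12.

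All 3 Id genes were lower in TKO2 by several fold. Id3 (ENSMUSG00000007872, chromosome 4 of GRCm38 from 136143497 to 136145755) reached 1348 CPM (1311 to 1386) in TKO1 and 139 CPM (131 to 148) in TKO2, a log2 ratio of -2.91 (-3.01 to -2.82). Id1 (ENSMUSG00000042745, chromosome 2, 152736251 to 152737410) was at 317 CPM (299 to 335) and 42.0 CPM (37.6 to 46.8), a log2 ratio of -2.55 (-2.73 to -2.37). Id2 (ENSMUSG00000020644, chromosome 12, 25093799 to 25097140) was at 553 CPM (529 to 577) and 112 CPM (105 to 120.1), a log2 ratio of -1.93 (-2.05 to -1.82). The intervals of the tumors lie apart for each of the 3 genes, under CPM as well as relative to all genes. The share of all genes whose intervals lie apart was not computed, here or for the comparisons below. Id4, the other member of the family and not among the 9, had 707 CPM in TKO1 and 66.0 CPM in TKO2, a log2 ratio of -3.06 (-3.20 to -2.92).

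**Figure D1:**
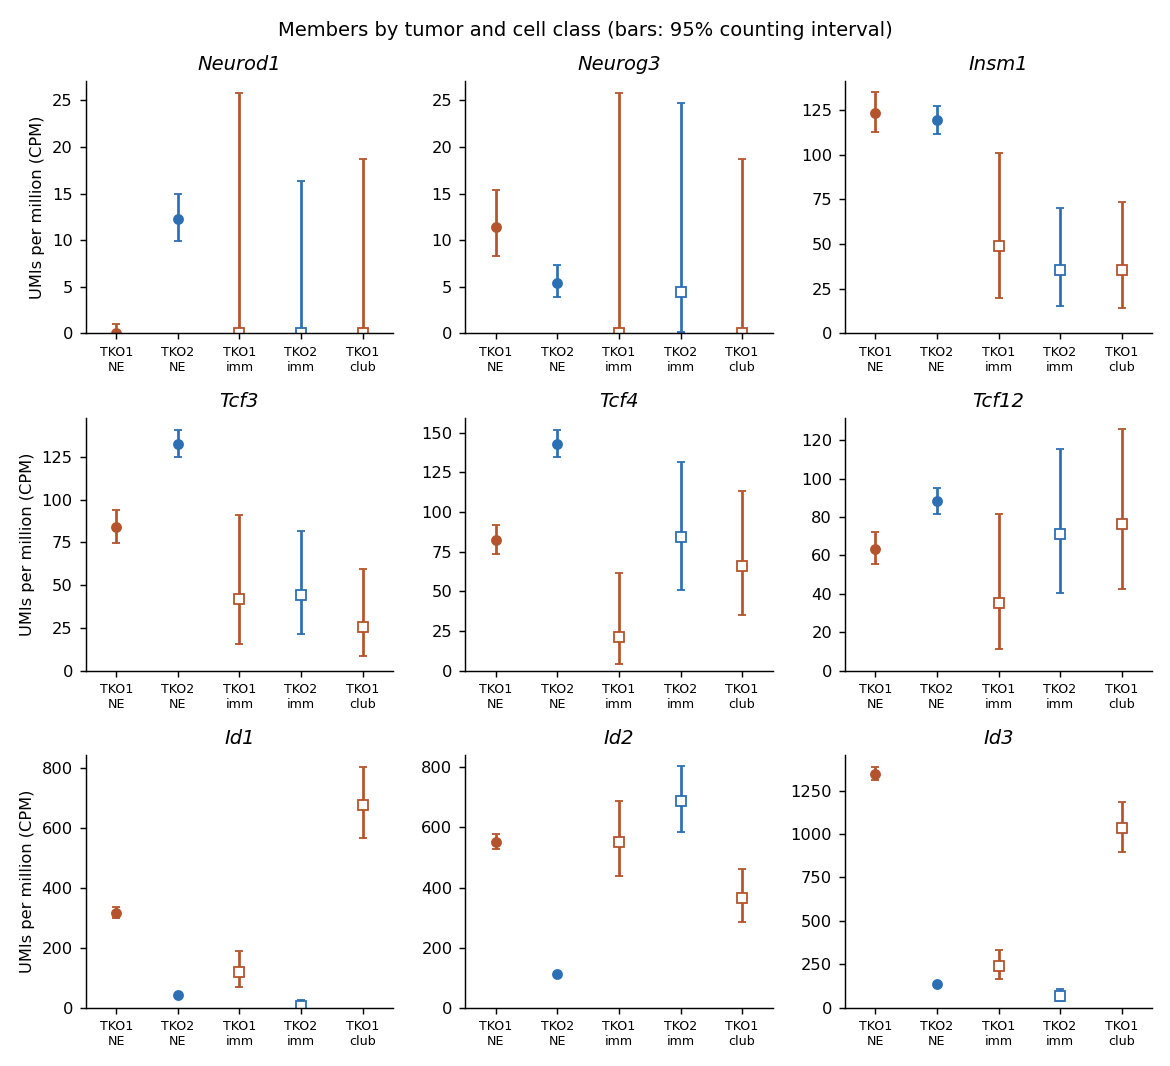
Level of each of the 9 genes (vertical axis, CPM, linear and starting at 0, scaled per gene) in neuroendocrine-like (NE, filled circles), immune-like (imm) and club-like (open squares) cells of TKO1 (brown) and TKO2 (blue); bars are exact 95% counting intervals. In neuroendocrine-like cells Id1, Id2 and Id3 are higher in TKO1, at 317, 553 and 1348 CPM, and Neurod1 has UMIs in TKO2 only, at 12.2 CPM.

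Other cells of the same tumors set a level against which these values can be read, with a limit. Neuroendocrine markers also gave UMIs there, summing to 4251 CPM in immune-like cells of TKO1 and 595 CPM in those of TKO2. In the club-like cells of TKO1 they summed to 6341 CPM. How much of the level of any member in these cells, here and below, is RNA from tumor cells was not tested. In immune-like cells, Id3 had 238 CPM in TKO1 (34 UMIs) and 66.6 CPM in TKO2 (15 UMIs), which is 17.6% and 47.9% of the neuroendocrine-like level. Id1 had 119 CPM in the immune-like cells of TKO1 and 4.44 CPM, a single UMI, in those of TKO2. Id2 differed from both, with 552 CPM (437 to 688) and 688 CPM (584 to 805) in immune-like cells, a level that equals the neuroendocrine-like level in TKO1 and is 612% of it in TKO2. The club-like cells of TKO1 had Id1 at 676 CPM (566 to 801), above the neuroendocrine-like cells, and Id3 at 1032 CPM (895 to 1184), below them. The 8 club markers summed to 485 CPM in the neuroendocrine-like cells of TKO1 and 26.9 CPM in those of TKO2, with Bpifa1 at 0 in both and Cbr2 at 0 in TKO2, and the 6 ciliated markers to 156 and 22.4 CPM, so both moved with the Id genes, and their part in the difference was not tested.

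The E proteins went the other way, by less. Tcf4 (ENSMUSG00000053477, chromosome 18, 69343356 to 69689079), called E2-2, was at 82.3 CPM (73.4 to 92.0) in TKO1 and 143 CPM (135 to 152) in TKO2, a log2 ratio of 1.16 (0.98 to 1.35). Tcf3 (ENSMUSG00000020167, chromosome 10, 80409514 to 80433647), which encodes E12 and E47, was at 83.9 CPM (74.9 to 93.7) and 133 CPM (125 to 141), a log2 ratio of 1.03 (0.84 to 1.21). Tcf12 (ENSMUSG00000032228, chromosome 9, 71842688 to 72111871), called HEB, was at 63.5 CPM (55.7 to 72.0) and 88.3 CPM (81.8 to 95.1), a log2 ratio of 0.84 (0.63 to 1.06). Their intervals also lie apart between the tumors in plain CPM, but there the log2 ratios were 0.66 for Tcf3, 0.80 for Tcf4 and 0.48 for Tcf12, all under 2-fold. In immune-like cells Tcf3 was at 42.0 and 44.4 CPM, and Tcf4 at 20.98 and 84.3 CPM, from 3 to 19 UMIs each.

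The proneural factors were rare, and Neurod1 had UMIs in TKO2 alone. Neurod1 (ENSMUSG00000034701, chromosome 2, 79452521 to 79456751) was listed at 0 UMIs in all barcodes of TKO1. In neuroendocrine-like cells, 3 UMIs would be 0.797 CPM, and the exact 95% upper limit is 0.980 CPM. In TKO2 it had 95 UMIs, 12.2 CPM (9.90 to 15.0). Against 3 UMIs put in place of the 0 in TKO1, that is 15.4-fold higher in CPM and 19.8-fold relative to all genes. As log2 ratios these are 3.94 and 4.31, with lower counting limits of 3.62 and 3.98, and the second was 3.27 in barcodes with more than 1000 genes. Its annotated span lies inside that of Cerkl on the same strand, and Cerkl had 0 and 3 UMIs. Neurog3 (ENSMUSG00000044312, chromosome 10, 62133090 to 62134763), which starts the endocrine program in the pancreas, had 11.4 CPM (8.26 to 15.4, 43 UMIs) in TKO1 and 5.41 CPM (3.90 to 7.32, 42 UMIs) in TKO2, a log2 ratio of -0.71 (-1.36 to -0.06) that was -1.08 in plain CPM. In TKO1, 35 of its 43 UMIs were in a single cluster of 233 cells (cluster 7), and no other cluster was above 4.87 CPM. The higher Neurog3 level in TKO1 thus rests on that cluster. Insm1 (ENSMUSG00000068154, chromosome 2, 146221921 to 146225020) was at 123 CPM (113 to 135) and 119 CPM (112 to 127), a log2 ratio of 0.32 (0.15 to 0.48) relative to all genes and of -0.05 (-0.21 to 0.11) in CPM, so its direction depends on the scaling. Immune-like cells had 48.9 and 35.5 CPM of Insm1, from 7 and 8 UMIs, and club-like cells 35.6 CPM.

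The bases before the RefSeq start sites of both proneural genes and of Id2 are shown because bHLH factors act at E-boxes. They come from RefSeq (GRCm38.p6) windows of 250 bases before the start, which were read for 6 of the 9 genes, and are cut where a GENCODE M21 exon begins. They run 5' to 3' on the gene's strand, with E-boxes (CANNTG, which reads the same on both strands) in capitals. The Neurod1 stretch is chr2:79456786-79456886 on the minus strand, the Neurog3 stretch chr10:62132840-62133089 on the plus strand and the Id2 stretch chr12:25096254-25096342 on the minus strand. The RefSeq starts of Neurod1 and Id2 lie inside the GENCODE spans given above for these genes. The Id2 stretch lies wholly inside the Id2 span (25093799 to 25097140), so it is not the sequence before the GENCODE start.
Neurod1: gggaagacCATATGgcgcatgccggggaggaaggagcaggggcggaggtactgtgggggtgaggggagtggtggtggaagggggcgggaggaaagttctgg
Neurog3: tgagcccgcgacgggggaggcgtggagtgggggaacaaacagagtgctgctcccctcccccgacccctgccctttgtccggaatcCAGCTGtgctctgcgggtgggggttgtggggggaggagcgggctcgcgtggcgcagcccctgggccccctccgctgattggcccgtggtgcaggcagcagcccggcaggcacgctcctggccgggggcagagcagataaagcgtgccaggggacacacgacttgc
Id2: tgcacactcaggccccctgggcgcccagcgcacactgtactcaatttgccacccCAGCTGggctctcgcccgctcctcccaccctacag
Each of the 3 holds 1 E-box, which starts at position -242 of Neurod1, -165 of Neurog3 and -196 of Id2 from the RefSeq start site. Of 27025 windows of all genes, 66.0% held an E-box in 250 bases, 36.4% in the part matching the Neurod1 stretch and 33.0% in the part matching the Id2 stretch. The Id3 window lies wholly in an annotated exon and is not shown.

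Of the 9 genes, 3 were at least 2-fold higher in TKO1 (Id1, Id2 and Id3), 3 at least 2-fold higher in TKO2 (Neurod1, Tcf3 and Tcf4) and 3 lay between. Over all 12848 genes tested, 22.9% were at least 2-fold higher in TKO1 and 18.4% in TKO2. A 2-fold difference is therefore common between these libraries. The median size of the log2 ratio over all genes was 0.80, little below the ratios of Tcf3, Tcf4 and Tcf12. Without centring, 4 of the 9 were at least 2-fold higher in TKO1, among them Neurog3, mostly from cluster 7, and only Neurod1 in TKO2. In that scaling, 31.0% of all genes were at least 2-fold higher in TKO1 and 12.0% in TKO2. Tcf3 was also under 2-fold, at log2 ratios of 0.88 to 0.98, in barcodes with more than 1000 genes, without mitochondrial and ribosomal protein genes and with coarser clusters.

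The balance of inhibitor and E-protein transcripts, not of the proteins, can be read within a library, where the scaling cancels. Id4, with 2663 UMIs in TKO1 and 512 in TKO2, is not counted in it. For every 100 UMIs of Tcf3, Tcf4 and Tcf12, the neuroendocrine-like cells of TKO1 had 965 UMIs of Id1, Id2 and Id3 (900.0 to 1037) and those of TKO2 had 80.6 (76.2 to 85.2). UMIs are not scaled for how well each transcript is captured, so the number has meaning only beside the same number in other cells. Immune-like cells had 929 (534 to 1746) in TKO1 and 380 (272 to 540.2) in TKO2, and the club-like cells of TKO1 had 1236 (866 to 1821). The neuroendocrine-like clusters of TKO1 ran from 760 to 1165 and those of TKO2 from 24.3 to 316, so the ranges do not overlap. Without cluster 6, which gave the highest of these, TKO2 had 43.9.

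Levels also differed within each tumor. The clusters were made from the same counts, and Id1, Id2 and Id3 in both tumors, Neurog3 in TKO1 and Neurod1 in TKO2 were among the 1000 variable genes used, so the spread over clusters is partly built in and is described without a test. In the 7 neuroendocrine-like clusters of TKO1, Id3 was lowest in cluster 3, at 846 CPM, and highest in cluster 5 (359 cells), at 1669 CPM. In TKO2 a single cluster stood apart. Cluster 6 (294 cells, led by Spp1, with H19 and Vtn among its top 10 genes) had Id3 at 910 CPM (846 to 978), and the other 7 ran from 38.8 to 105 CPM. It had 752 of the 1079 Id3 UMIs of the neuroendocrine-like cells, 69.7%, in 8.70% of the cells. Id1 was at 162 CPM in that cluster and at 27.7 CPM over the others, and Id2 at 384 and 80.0 CPM. In plain CPM, its Id3 level compares with 846 CPM (766 to 932) in the lowest cluster of TKO1. Its Id2 was at 384 CPM (343 to 428) against 353 CPM (293 to 422) in the lowest of TKO1. Its Id1 was at 162 CPM (136 to 192) against 191 CPM (148 to 244). The intervals overlap for each of these genes. Cluster 6 also had the highest Neurod1, 27.8 CPM against 10.4 CPM over the others, Tcf4 at 223 against 134 CPM, and the lowest Insm1, 75.0 against 125 CPM, with 11 of the 16 neuroendocrine markers raised over immune-like cells. These traits were not particular to it. Cluster 4 had Tcf4 at 229 CPM (205 to 256), and the Insm1 interval of cluster 6 (57.5 to 96.2) overlaps that of cluster 5 (76.3 to 118). Without cluster 6, the log2 ratios of TKO2 to TKO1 were -4.45 for Id3, -3.13 for Id1 and -2.40 for Id2.

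Neurog3 was as uneven in TKO1. Cluster 7 (233 cells, led by Nefm and Neurog3 itself) had 35 of the 43 UMIs, 103 CPM (71.8 to 143), and no other cluster was above 4.87 CPM. The same cluster had the lowest Id1 and Id2 of TKO1, 191 and 353 CPM, while its Id3, 1448 CPM, was behind only clusters 5 and 6. In TKO2, Neurog3 was highest in clusters 0 and 2, at 14.2 and 13.4 CPM, where Neurod1 was at 5.01 CPM and 0. Neurod1 was at 21.9, 21.3 and 27.8 CPM in clusters 4, 5 and 6, where Neurog3 was between 0 and 2.42 CPM. None of the 62 cells with a Neurod1 UMI and the 37 with a Neurog3 UMI was the same cell, but the product of their shares gives only 0.678 cells, so a separation of the pair was not detectable at this depth. Tcf4 varied over the clusters of TKO2 from 78.1 to 229 CPM and of TKO1 from 58.9 to 91.9 CPM. Tcf12 had the narrowest range of the E proteins in TKO2, 65.8 to 108 CPM.

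**Figure D2:**
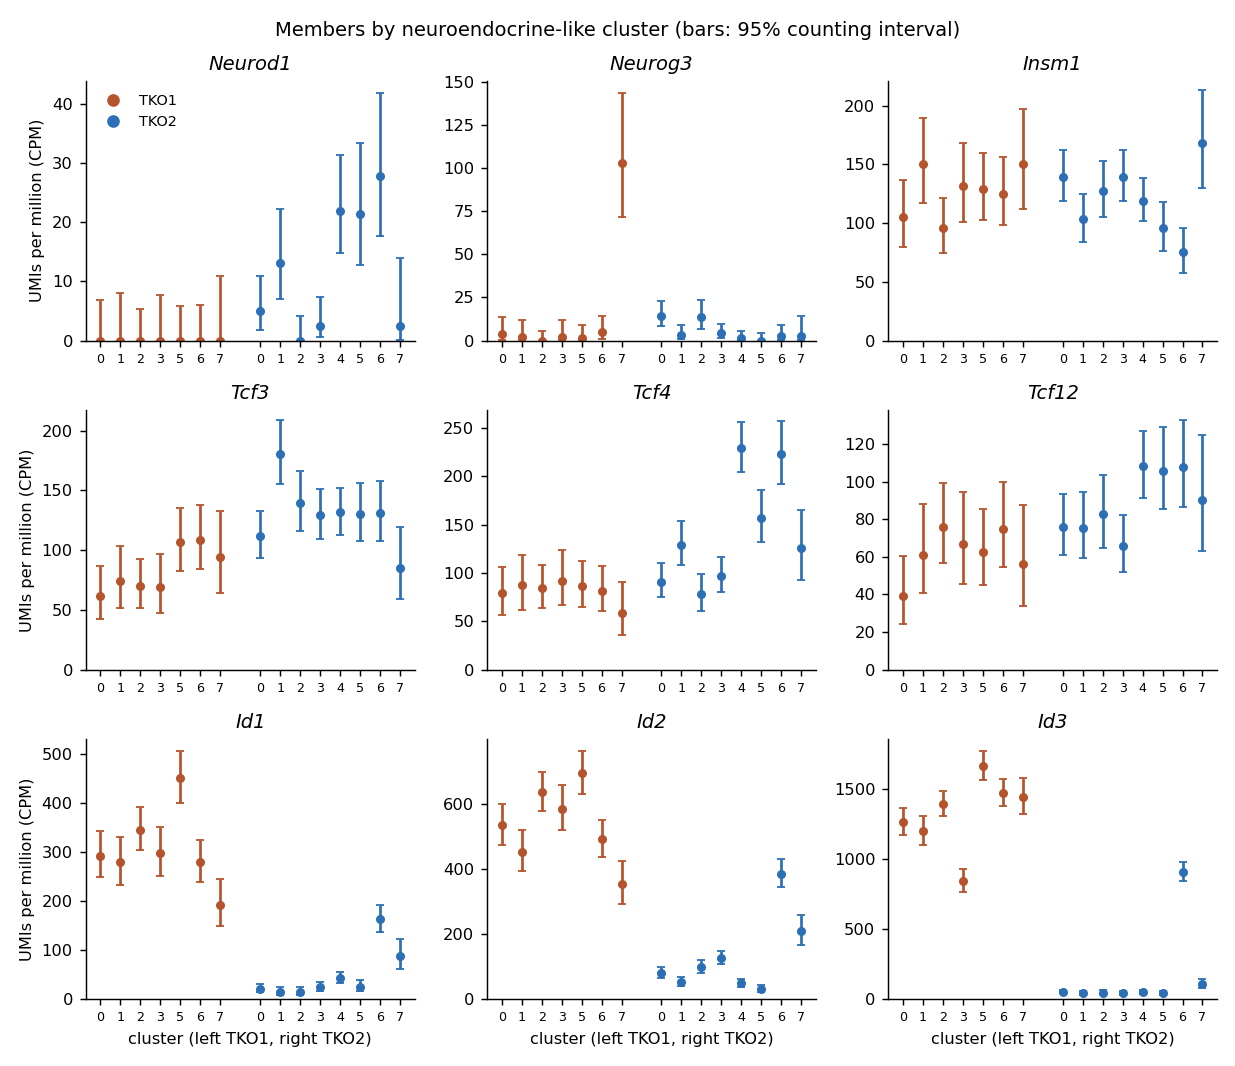
Level of each of the 9 genes (vertical axis, CPM, linear and starting at 0, scaled per gene) in each neuroendocrine-like cluster, numbered on the horizontal axis, of TKO1 (brown, left) and TKO2 (blue, right); bars are exact 95% counting intervals. Cluster 6 of TKO2 stands out for Id3 at 910 CPM, and cluster 7 of TKO1 for Neurog3 at 103 CPM.

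For shares of cells at equal depth, 1000 UMIs were drawn from each neuroendocrine-like cell, which left out 728 shallower cells of TKO1 and 361 of TKO2. Id3 was found in 1005 of 1892 cells of TKO1, 53.1% (50.8 to 55.4), and in 222 of 3020 cells of TKO2, 7.35% (6.45 to 8.34). Before thinning the shares were 56.2% and 10.6%. Id2 was in 33.0% and 6.99% of cells, and Id1 in 20.2% and 2.62%. In immune-like cells, which had like depth (medians of 1433 and 1718 UMIs, against 1418 and 2108 in neuroendocrine-like cells), Id3 was in 11 of 82 cells of TKO1, 13.4% (6.89 to 22.7), and in 9 of 112 of TKO2, 8.04% (3.74 to 14.7). The Id3 share of TKO2 thus is not above that of its immune-like cells, while that of TKO1 is. The share does not show how the UMIs were spread. In TKO2, 51 of 3020 neuroendocrine-like cells held 3 or more Id3 UMIs, and 0 of 112 immune-like cells did. With so few immune-like cells, these counts do not show that the spread differs.

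Tcf3 and Tcf4 were in fewer cells of TKO1, with intervals apart. Tcf3 was in 7.14% (6.02 to 8.39) of cells in TKO1 and 12.8% (11.6 to 14.02) in TKO2, and Tcf4 in 7.19% (6.06 to 8.45) and 12.4% (11.3 to 13.6). Tcf12 was in 5.76% (4.75 to 6.91) and 7.48% (6.57 to 8.48), whose intervals overlap. Insm1 was in 9.88% (8.58 to 11.3) and 10.7% (9.62 to 11.9), against 4.88% and 3.57% of immune-like cells. Neurog3 was in 0.899% and 0.563%. Neurod1 was in 0 of 1892 cells of TKO1, which allows a share of cells with a UMI of up to 0.159% at this depth and does not limit the cells that express it, and in 1.06% (0.726 to 1.49) of TKO2.

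With Id1, Id2 and Id3 counted as 1 family, 67.2% (65.0 to 69.3) of the cells of TKO1 and 12.6% (11.5 to 13.9) of those of TKO2 held at least 1 UMI, and 8.55% of TKO2 without cluster 6. Cells with UMIs of all 3 genes were 8.40% of TKO1 and 0.728% of TKO2. The tenth of cells with the most Id UMIs held 90.9% of them in TKO2 and 39.3% in TKO1, but such a share is high wherever few cells hold a UMI, and 12.6% of the cells of TKO2 held any. The Fano factor, the variance over the mean, is 1 for counting error alone and had a median of 1.16 over 6480 genes of TKO1 and of 1.09 over 5404 genes of TKO2. It was 3.72 for the Id family in TKO1 and 4.001 in TKO2. It was 3.15 for Id3 in TKO1, where 21 genes were higher, and 2.84 in TKO2, where 16 were higher. Tcf12, at 1.12 and 1.08, lay below the median of all genes in both tumors. Outside cluster 6, the Fano factors of TKO2 were 1.82 for Id3 and 2.36 for Id2.

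**Figure D3:**
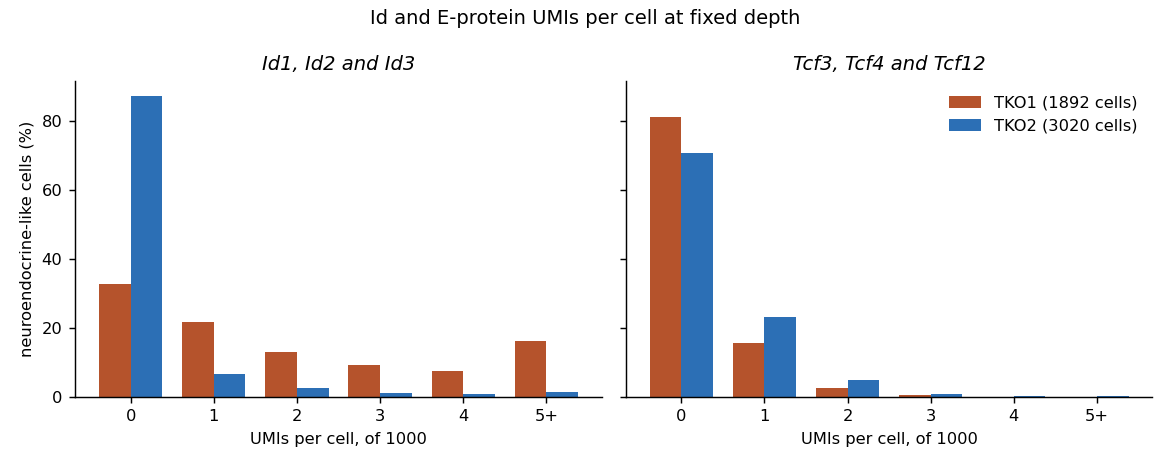
Percent of neuroendocrine-like cells (vertical axis) by the number of UMIs they held of 1000 (horizontal axis) for the 3 Id genes together (left) and the 3 E proteins together (right), in 1892 cells of TKO1 (brown) and 3020 of TKO2 (blue). For the Id genes 32.8% of the cells of TKO1 and 87.4% of those of TKO2 are at 0, while 18.7% and 29.1% hold at least 1 E-protein UMI.

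Whether the genes fall in the same cells was described by the number of cells with both of a pair over the number that the product of their shares gives. The Id genes were found together in both tumors. In TKO1 the ratio was 1.56 (1.35 to 1.79) for Id1 and Id2, 1.40 (1.24 to 1.57) for Id1 and Id3 and 1.26 (1.14 to 1.39) for Id2 and Id3. In TKO2 it was 6.88 (4.87 to 9.45), 6.72 (4.78 to 9.18) and 4.84 (3.80 to 6.06). The ratios are not on 1 scale, because a gene in 53.1% of cells cannot exceed 1.88, whereas the limit for Id2 and Id3 in TKO2 is 13.6. The odds ratios, which have no such limit, were 2.68, 3.19 and 2.35 in TKO1 and 14.8, 14.7 and 9.99 in TKO2. Put as shares, 67.0% of the cells of TKO1 with Id2 also had Id3, against 46.3% of those without Id2, and in TKO2 it was 35.5% against 5.23%. The background was taken from all genes held by at least 1% of cells. In TKO2, 3.01% of 7305 such genes reached a ratio of 2 with Id3, 142 genes did with Id2 and 541 with Id1. In TKO1, 0% of 8473 did with Id3, where the limit of 1.88 fixes that number and it gives no background, 1 did with Id2 and 22 with Id1. The Id pairs of TKO1, at 1.26 to 1.56, are under 2, so the counts with Id1 and Id2 give no background for them either. The median ratio of all such genes in TKO1 was 1.00 with Id1 and with Id2 and 0.999 with Id3.

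Joint presence of the Id genes in TKO2 was not confined to cluster 6. In the 2749 thinned cells outside it, the ratio was 7.65 (4.74 to 11.7) for Id1 and Id2, 8.68 (4.86 to 14.3) for Id1 and Id3 and 6.81 (4.79 to 9.39) for Id2 and Id3, from 15 to 37 cells with both. Across the 1892 and 3020 thinned cells, which share a library each, the gene of 2376 most like Id2 was Id3, and the reverse, with Pearson correlations of 0.24 in TKO1 and 0.31 in TKO2. The next gene was at 0.05 and 0.06 for Id2, and of the other members ranked, Insm1, Tcf3, Tcf4 and Tcf12, none had a gene at 0.1 or above in both tumors. Neurod1, Neurog3 and Id1 were not ranked, since each was in fewer than 5% of the cells of a tumor.

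Pairs of an Id gene with an E protein were compared in the same way. The ratio of Tcf3 and Id3 was 1.02 (0.798 to 1.28) in TKO1 and 0.811 (0.514 to 1.22) in TKO2, and that of Tcf4 and Id3 was 1.02 (0.804 to 1.29) and 0.943 (0.616 to 1.38). The interval held 1 for all 9 pairs of an Id gene and an E protein in each tumor, which does not show that these genes are independent. That was so at 1000 UMIs in the draw shown. Another random draw gave 0.563 (0.308 to 0.945) for Tcf3 and Id2 and 1.71 (1.14 to 2.47) for Tcf12 and Id3 in TKO2, a draw of 500 UMIs gave 0.369 (0.101 to 0.945) for Tcf3 and Id3 in TKO2, and all retained barcodes gave 1.86 (1.14 to 2.88) for Tcf4 and Id1 in TKO2. The exception among pairs with at least 3 cells given by the product was Insm1 and Id3 in TKO2, found together in 11 cells where the product gives 23.7, a ratio of 0.463 (0.231 to 0.829). Without cluster 6, in which Id3 was highest and Insm1 lowest, the ratio was 0.720 (0.311 to 1.42), and in TKO1 it was 0.886 (0.711 to 1.09).

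**Figure D4:**
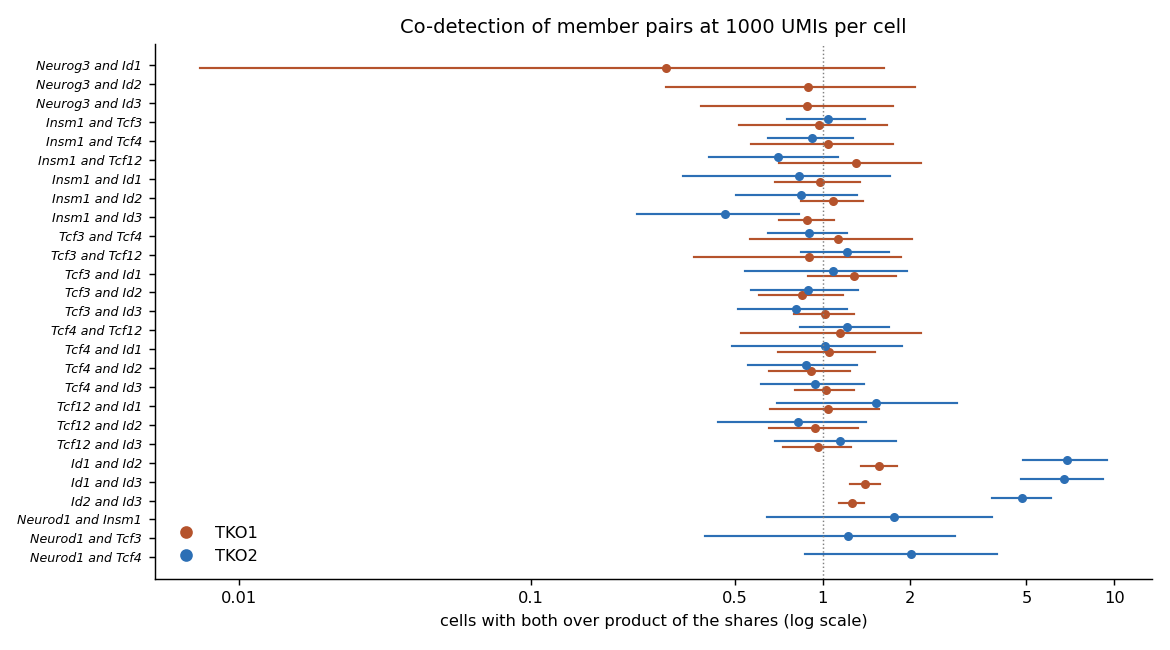
Cells with UMIs of both genes over the number that the product of their shares gives (horizontal axis, log scale) for pairs where the product gives at least 3 cells, in TKO1 (brown) and TKO2 (blue), at 1000 UMIs per cell; lines are exact 95% counting intervals and the dotted line is at 1. The 3 pairs of Id genes are at 1.26 to 1.56 in TKO1 and 4.84 to 6.88 in TKO2, and of the other lines only that of Insm1 and Id3 in TKO2, at 0.463, does not cross 1.

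Cycling state was read from thinned cells. A cell with at least 3 UMIs of 35 mitotic genes was called G2/M-high, another with at least 3 UMIs of 36 S-phase genes S-high, and a cell with under 2 of both low. None of the 9 genes is in these lists. G2/M-high cells were 18.1% of TKO1 and 41.7% of TKO2, S-high cells 40.2% and 42.9%, and low cells 26.1% and 6.75%, with 7.88% and 13.1% of cells within 1 UMI of the mitotic cut. G2/M-high cells were also deeper, at medians of 1844 against 1298 UMIs in TKO1 and of 2493 against 1797 in TKO2. The classes are ranges of a count, not cell types.

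Against low cells, 0 or 1 of the genes tested passed 2-fold in each direction and class. With 7 to 9 genes tested, such counts are near what the shares of all genes, in parentheses, would give. They are not read as a result about the 9 genes. Of 7 with enough UMIs in TKO1, 0 were 2-fold higher in G2/M-high cells (10.1% of all genes) and 0 lower (8.82%). Of 9 in TKO2, 0 were higher (10.6%) and 1 lower (9.68%), Neurog3 at exactly 2-fold from 9 and 2 UMIs. In S-high cells, 1 of 8 in TKO1 was higher (6.05%) and 0 lower (4.34%), and 0 of 9 in TKO2 were higher (8.55%) and 1 lower (6.41%), Neurod1 with a log2 ratio of -1.24 (-2.43 to 0.11). The gene that was higher in the S-high cells of TKO1 was Neurog3, at 23.5 CPM from 29 UMIs against 2.63 CPM from 2 UMIs in low cells, a log2 ratio of 3.15 (1.16 to 6.26), and 2.89 CPM in G2/M-high cells. Of those 29 UMIs, 25 were in cluster 7, of whose thinned cells 65.5% were S-high. Outside cluster 7, S-high cells had 4 Neurog3 UMIs and low cells 0. Another random draw of the thinned cells gave a log2 ratio of 1.64 (0.36 to 3.20).

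Smaller differences had intervals clear of 0. The share of all genes with an interval clear of 0 was not computed, so these differences are described only. The intervals cover counting error only, and by the Fano factors above the spread of Id3 between cells was wider than that. Id3 was higher in G2/M-high than in low cells of TKO1, 1588 CPM (1495 to 1684) against 1241 CPM (1163 to 1323), a log2 ratio of 0.39 (0.26 to 0.52). Most of those G2/M-high cells, 254, were in cluster 6 of TKO1, which had 3 low cells, and in cluster 5, with 65 G2/M-high and 18 low cells, Id3 was at 1668 CPM against 1849 CPM. In S-high cells of TKO1 the ratio was 0.18 (0.07 to 0.30), and 0.08 (-0.07 to 0.22) from thinned UMIs. In TKO2 it was at 147 CPM in G2/M-high, 120 CPM in S-high and 170 CPM in low cells, with log2 ratios of -0.23 (-0.60 to 0.15) and -0.54 (-0.92 to -0.15), and from thinned UMIs of -0.65 (-1.16 to -0.12) and -0.58 (-1.08 to -0.06). Id2 in S-high cells of TKO2 was at 87.4 CPM against 122 CPM, a log2 ratio of -0.53 (-0.98 to -0.06), and -0.58 (-1.18 to 0.07) from thinned UMIs. Without cluster 6, the ratios of S-high to low cells in TKO2 were 0.40 (-0.46 to 1.39) for Id3 and -0.36 (-0.93 to 0.25) for Id2, so the direction for Id3 rests on that cluster. Tcf4 was higher in the G2/M-high cells of TKO2, 178 CPM (165 to 193) against 122 CPM (90.5 to 162), a log2 ratio of 0.52 (0.10 to 0.97) that was 0.85 (0.34 to 1.41) without cluster 6, and in TKO1 the ratio was -0.17 (-0.68 to 0.34). From thinned UMIs the ratio in TKO2 was 0.35 (-0.22 to 0.97). Cluster 4, with 1 low cell, held 296 of the Tcf4 UMIs of those G2/M-high cells, at 239 CPM, and clusters 3 and 7, with no low cell, were at 111 and 126 CPM. Tcf3 in G2/M-high cells had a log2 ratio of 0.58 (0.04 to 1.13) in TKO1 and of -0.06 (-0.48 to 0.40) in TKO2, but with another random draw the interval in TKO1 held 0 and the ratio in TKO2 was -0.54 (-0.90 to -0.17). Insm1 and Tcf12 had intervals that held 0 in both classes of both tumors, with log2 ratios between 0.01 and 0.46, but from thinned UMIs Tcf12 in the G2/M-high cells of TKO1 had 0.97 (0.16 to 1.80). Id UMIs per 100 E-protein UMIs were 932, 930.1 and 903 in G2/M-high, S-high and low cells of TKO1 and 81.6, 71.5 and 104 in those of TKO2.

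**Figure D5:**
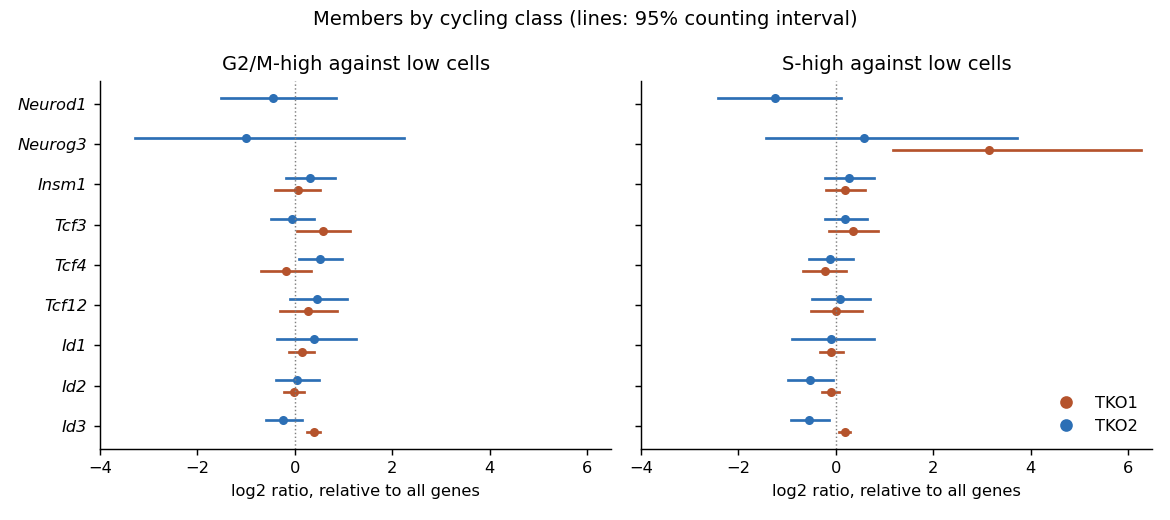
Log2 ratio of each gene to low cells, relative to all genes (horizontal axis), in G2/M-high (left) and S-high (right) neuroendocrine-like cells of TKO1 (brown) and TKO2 (blue); lines are exact 95% counting intervals, and genes with under 10 UMIs over both classes are left out. Neurog3 in the S-high cells of TKO1 is at 3.15, and the other points lie between -1.24 and 0.58.

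Genes that act with the 9 were taken from lists. Counts of list genes at least 2-fold apart can be read against 22.9% of all genes higher in TKO1 and 18.4% higher in TKO2. Among other inhibitory HLH factors, 7 of 13 had at least 10 UMIs, of which 4 were higher in TKO1, 1 in TKO2 and 2 lay between, with a median log2 ratio of -1.01. Beside Id4, these were Hes1 (50.2 and 16.0 CPM), a repressor induced by Notch, and the repressors Bhlhe40 (61.1 and 8.89 CPM) and Bhlhe41 (48.9 and 18.8 CPM). Hes5, another Notch target, went the other way, with 8.76 CPM in TKO1 and 101 CPM in TKO2, a log2 ratio of 3.89 (3.39 to 4.44). The Notch targets Hes1 and Hes5 thus were not higher in the same tumor. Of 39 other neurogenic and tissue bHLH factors, 24 had no UMI in either tumor and only 7 had at least 10 UMIs. Of these, Ascl4, Bhlha15, Mesp1 and Mesp2 were higher in TKO1 and Ptf1a and Nhlh2, with 0 UMIs in TKO1 and 43 and 31 in TKO2, in TKO2. These 6 are named because the counts are small, after their values were seen, and the median was -1.90.

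Endocrine factors known to act after Neurog3 and Neurod1 were mixed, with 3 of 13 higher in TKO1, 4 in TKO2 and 6 between, and a median of 0.12. St18 was higher in TKO1, at 83.9 against 30.9 CPM, and Pou3f4 in TKO2, at 2.66 against 25.4 CPM, as was the somatostatin receptor Sstr2, at 14.6 against 25.3 CPM. Among 20 of 34 BMP signaling genes, 5 were higher in TKO1, 6 in TKO2 and 9 lay between, with a median of -0.06. The ligands Bmp2 (20.4 and 0.515 CPM) and Bmp7 (26.6 and 5.28 CPM) and the inhibitors Bambi (324 and 72.2 CPM) and Smad7 (24.4 and 8.25 CPM), themselves induced by the pathway, were higher in TKO1. Higher in TKO2 were the secreted antagonist Fst (5.58 and 130.3 CPM), the receptor Acvr2b (18.1 and 61.6 CPM) and the co-receptor Rgma, at 0.266 CPM from 1 UMI against 21.8 CPM. Of the SNAG corepressor genes, which work with Insm1, 10 of 11 were tested, with 2 higher in TKO1 (Kdm1a, 242 and 82.2 CPM, and Hdac1, 167 and 46.5 CPM), 1 in TKO2 (Rcor2, 16.2 and 88.0 CPM) and 7 between, and a median of -0.20. Of 11 tested among 13 E-protein cofactors, 4 were higher in TKO1, 2 in TKO2 and 5 lay between, with a median of -0.58. The adaptor Lmo4 (35.1 and 144 CPM) and its partner Ldb1 (18.3 and 33.4 CPM) were higher in TKO2, and Lmo1 (129 and 35.3 CPM), Lmo2 (61.3 and 20.4 CPM), the corepressor Cbfa2t3 (59.0 and 8.50 CPM) and the coactivator Ep300 (28.4 and 10.2 CPM) in TKO1.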

How the data were processed

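Single-cell libraries of TKO1 and TKO2 were made on the 10x Chromium platform. The files deposited by the authors hold raw UMI counts, as whole numbers, for every gene in every barcode. Per the submitters' processing notes, Cell Ranger and Seurat were used with the mm10 build, with versions not given in the sources used here. Positions are from GENCODE M21 (GRCm38), which held 27645 of the 27998 identifiers.

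Barcodes with more than 500 genes and under 10% mitochondrial UMIs (which removed 0) were clustered per tumor with Seurat 5.3.0 in R 4.3.3 (1000 variable genes, 10 components, resolution 0.8) and named from markers. A type needed 3 markers at least 4-fold higher than in other cells, or, for neuroendocrine, 2-fold above the immune-like cells. A cluster of another type that also held more than 8 of the 16 neuroendocrine markers stayed unnamed. Scrublet (scanpy 1.11.5) called 0 doublets, so cells above the 95th percentile of its score (109 and 127) were left out as an alternative.

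Summed CPM have exact Poisson intervals, ratios exact conditional binomial intervals, shares Clopper-Pearson intervals, and ratios between tumors are centred on the median of all genes with at least 10 UMIs. A count of 0 was set at 3 UMIs for a bound. Thinning drew 1000 UMIs per cell (seed 1). Expected co-detection is the product of the shares, and its interval is that of the observed count. Computation used Python 3.11.15, numpy 2.4.6, scipy 1.17.1 and pandas 2.3.3, figures matplotlib 3.10.9, and TMM factors edgeR 4.0.16, which gave no test, as there is 1 library a tumor. The ratios, intervals and co-detection were tested on simulated data. The 9 genes and all lists were chosen with earlier results of these data known. Named beside the 9 were list genes with at least 20 CPM and a 2-fold ratio, at most 4 each way, and genes like a member in both tumors at a correlation of 0.1. Alternatives covered filters, scaling, clustering, doublets, thinning depth, seed and cuts, and the 2 that add or remove a cluster were added after seeing the data.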

Additional observations from a re-analysis of the deposited data

Results flagged for a closer look

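Id3 differed in direction between the tumors by cycling class, with a log2 ratio of S-high to low cells of 0.18 in TKO1 and -0.54 in TKO2. The intervals exclude 0 on opposite sides, but the difference between the tumors was not tested, and without cluster 6 of TKO2 the ratio there was 0.40 (-0.46 to 1.39). These intervals cover counting error only. The Fano factor of Id3 over cells was 3.15 in TKO1 and 2.84 in TKO2, where counting error alone gives 1, so they are too narrow for the spread between cells. From thinned UMIs the ratio in TKO1 was 0.08 (-0.07 to 0.22).

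Barcodes with 500 or fewer genes, 1321 in TKO1 and 248 in TKO2, entered only the alternative that kept barcodes with more than 200 genes, and held UMIs of the same genes above the limit of 3 UMIs. In TKO1 there were 4 UMIs of Neurog3, 84 of Insm1, 45 of Tcf3, 54 of Tcf4, 44 of Tcf12, 311 of Id1, 462 of Id2 and 797 of Id3. In TKO2 there were 16 of Insm1, 22 of Tcf3, 16 of Tcf4, 12 of Tcf12, 11 of Id1, 44 of Id2 and 38 of Id3, and Neurod1 and Neurog3 had 0. As in the retained cells, the Id levels were higher in TKO1, with Id3 at 1109 CPM against 204 CPM.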

How the results depend on the processing

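Over 14 alternatives, the members at least 2-fold higher in TKO1 stayed within 1.5 times of 3, and those higher in TKO2 were 1 in CPM without centring, which took Tcf3 and Tcf4 below 2-fold, 2 or 3 under the others that keep the 2-fold limit and 4 at a limit of 1.5-fold. No ratio past 2-fold changed sign. Among the lists, SNAG corepressor genes higher in TKO1 rose from 2 to 4 without centring, and no other list count that changed by over 1.5 times moved by more than 2. The split of all genes moved with that scaling from 22.9% and 18.4% to 31.0% and 12.0%. Shares and co-detection depend on depth. At 500 UMIs per cell, 49.0% of TKO1 and 9.20% of TKO2 held an Id UMI, and the ratios of TKO1 were 2.00 (Id1 and Id2), 1.68 (Id1 and Id3) and 1.40 (Id2 and Id3). At 2000 UMIs, the shares were 84.3% and 18.9%, the ratios of TKO1 were 1.29, 1.19 and 1.12, and that of Id1 and Id2 in TKO2 was 3.93. The intervals for Id1 and Id3 and for Id2 and Id3 in TKO1 then held 1 (0.987 to 1.42 and 0.967 to 1.30). Without cluster 6, the share in TKO2 was 8.55%, its Id2 and Id3 ratio 6.81 and its Id UMIs per 100 E-protein UMIs 43.9. Over all retained barcodes the last was 89.2, and without Id2 it was 725 in TKO1 and 49.7 in TKO2. Counts of genes 2-fold apart by cycling class moved by 1, with 1 higher in G2/M-high cells of TKO1 at a cut of 2 UMIs. In TKO2, the 1 gene lower in G2/M-high cells became 0 at cuts of 2 and 5 UMIs, from thinned UMIs, without centring and without cluster 6, and the 1 lower in S-high cells became 0 at a cut of 5 UMIs and with another seed. The causes were not tested. No paired analysis was possible because each tumor has 1 library. Genes under 10 UMIs, and any single cell at 1 UMI of a gene, are beyond what this depth can resolve.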

Other observations

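In the neuroendocrine-like cells of TKO2, the 37 cells with a Neurog3 UMI held 5 of the 16 UMIs of Fev, an endocrine and serotonergic transcription factor, spread over 2 cells, where the product of the shares gives 0.131 cells. In TKO1, 1 of the 29 cells with Neurog3 held Fev, against 0.498 given by the shares. Fev was picked from the list of endocrine factors after these values were seen, and the counts are too small for more than a description.

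The 62 cells of TKO2 with a Neurod1 UMI were deeper than the others, with medians of 2809 and 1971 UMIs. They had Tcf4 at 207 CPM against 141 CPM, a log2 ratio of 0.55 (0.08 to 0.99), and Tcf12 at 48.3 CPM against 89.4 CPM, a log2 ratio of -0.89 (-1.96 to 0.00). Id1 was at 82.0 CPM against 40.9 CPM, a log2 ratio of 1.00 (0.21 to 1.71). Id3 was at 121 CPM against 140 CPM, with an interval of the log2 ratio from -0.84 to 0.36. The intervals for Insm1 (-0.01 to 1.00), Tcf3 (-0.51 to 0.61) and Id2 (-0.94 to 0.41) also held 0. Cluster 6 held 23 of the 95 Neurod1 UMIs and 134 of the 326 Id1 UMIs, in 8.70% of the neuroendocrine-like cells of TKO2. Its part in the Id1 ratio was not tested. Among the thinned cells, 0 held both Neurod1 and Id1, where the product of the shares gives 0.837. With so few given by the product, this does not show whether the pair is linked.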
